A study of Homo sapiens with 18 samples.

Results

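YAP1, WWTR1 (the gene of TAZ), TEAD1, TEAD4, CYR61 (CCN1), CTGF (CCN2), ANKRD1, AMOTL2 and LATS2 were followed through the RNA-seq and acRIP-seq data of PANC-1 cells depleted of NAT10. These 9 genes were taken by symbol as coactivators, DNA-binding partners and target genes of the Hippo pathway, and mapped to 1 Ensembl identifier each among the 58302 genes of the expression table. All 9 passed the expression filter, 1 FPKM or more in 3 or more of the libraries, which kept 12982 genes for testing. FPKM is a fragment count scaled by transcript length and by the fragments counted in the library.

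PANC-1 is an established human pancreatic ductal carcinoma line, and NAT10 is the acetyltransferase that writes N4-acetylcytidine (ac4C) on RNA. The cells carried a lentiviral short hairpin vector, either the control (shCtrl, an empty shRNA vector according to the labels, whereas the study's methods list a non-targeting hairpin) or one against NAT10 (shNAT10), so both groups shared the virus and the vector backbone. RNA-seq comprised 3 libraries per group. In acRIP-seq, fragmented RNA was immunoprecipitated with an ac4C antibody, with 3 immunoprecipitated and 3 input samples per group, from which 1 list of peaks per group was available. Every sample came from this 1 line, the hairpin used is not named, and nothing states that the replicates were separate infections, so p-values measure the spread between these samples.

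In the Hippo pathway, the kinases STK3 and STK4 activate LATS1 and LATS2, which phosphorylate YAP and TAZ and keep them out of the nucleus. Nuclear YAP and TAZ lack a DNA-binding domain and act through TEAD transcription factors, which bind a short element with the core GGAATG. CYR61, CTGF and ANKRD1 are the targets most often read as output, while AMOTL2 and LATS2 are targets whose products restrain YAP in turn. In carcinoma cells the pathway is known for its links to adhesion, cell shape and matrix stiffness.

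The CTGF promoter is shown here because CTGF had the largest fall among the members, with those of ANKRD1 and AMOTL2, which also fell, and of YAP1, which rose. Bases are RefSeq sequence on GRCh38.p14, written in the direction of the gene, and capitals mark GGAATG or its reverse complement CATTCC. For ANKRD1 and AMOTL2 only 30 bases around each match are given, since the wider stretch overlaps annotated exons of the gene. The YAP1 stretch overlaps an annotated exon of AP001527.2, a gene on the opposite strand.
CTGF, chr6:131951437-131951566, minus strand: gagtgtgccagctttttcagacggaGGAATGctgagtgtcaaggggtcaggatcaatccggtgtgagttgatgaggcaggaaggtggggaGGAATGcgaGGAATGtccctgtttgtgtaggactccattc
ANKRD1, chr10:90921290-90921319, minus strand: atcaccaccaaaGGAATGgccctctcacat
ANKRD1, chr10:90921198-90921227, minus strand: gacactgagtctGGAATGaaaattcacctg
AMOTL2, chr3:134374499-134374528, minus strand: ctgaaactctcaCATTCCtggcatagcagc
YAP1, chr11:102110260-102110315, plus strand: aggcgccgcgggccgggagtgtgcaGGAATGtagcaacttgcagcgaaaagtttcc

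Distances are to the transcription start of the RefSeq window. The CTGF window held 3 matches, which began 169, 104 and 95 bases upstream of that start, and the YAP1 window held 1 at 162 bases. The ANKRD1 window held 2, at 220 and 128 bases, but GENCODE places the 5′ end of ANKRD1 further upstream (at base 90921276), so the match at 128 bases lies inside the gene as GENCODE annotates it. AMOTL2 had 2 windows, and the single match, on the opposite strand at 69 bases, was in the one at an alternative start inside the gene. The stretch with 25 bases on each side of this match overlaps an annotated AMOTL2 exon. Neither of the 2 WWTR1 windows nor the LATS2 window held these letters. TEAD1, TEAD4 and CYR61 had no window in the table. Among all 35116 windows, searched over the same 250 upstream bases on both strands, 11.9% held at least 1 match, 0.928% at least 2 and 0.0797% at least 3. The matches describe the sequence and were not measured as sites of binding.

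The targeted gene was examined first. NAT10 stood at 31.6, 27.7 and 28.6 FPKM in shCtrl and at 7.92, 8.43 and 7.90 in shNAT10, a log2 fold change of -1.84 (limma, adjusted p = 3.9e-05). Recovered whole reads summed to 15963605 to 23717209 per library. Of the 12982 genes tested, 20.8% were called higher and 21.2% lower in shNAT10 at an adjusted p under 0.05 in limma, and 6.48% were also beyond a log2 fold change of 1. Rescaling to TPM raised the median log2 fold change of all genes from -0.01 to 0.10 and turned 2699 higher and 2751 lower calls into 3355 and 2075. The control library shCtrl replicate 2 stood apart with transcript length: its median deviation from the gene mean was 0.27 (log2) in the shortest sixth of genes and -0.32 in the longest sixth. Of the cell type markers, KRT7, KRT8, KRT18, KRT19, EPCAM and SOX9 were all above the filter. EPCAM rose by 2.20 (log2) and SOX9 by 0.19, while KRT8, KRT18, KRT19 and KRT7 fell by 1.18, 0.84, 0.83 and 0.83. The 7 fibroblast markers summed to 29.6 to 34.7 FPKM in shCtrl and 19.3 to 22.9 in shNAT10, nearly all of it COL1A1, with 5 of the 7 under 0.1 FPKM in every library. COL3A1 went against this sum and rose from 0.776 to 1.96 FPKM (log2 fold change 1.24, limma adjusted p = 0.0018). The 4 endothelial markers summed to at most 0.651 FPKM in any library and the immune markers to at most 2.93, nearly all of it CD14, with CD3E at 0 throughout. The part of these shifts in the members' values was not tested, and in bulk libraries fewer cells with a transcript and less of it per cell cannot be told apart.

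The coactivators rose while 3 of the 5 targets fell. In limma, 2 of the 9 members were called higher (YAP1 and WWTR1) against a background of 20.8%, and 3 were called lower (CTGF, ANKRD1 and AMOTL2) against 21.2%. TEAD1, TEAD4, CYR61 and LATS2 did not pass. None of the 9 was beyond a log2 fold change of 1, against 6.48% of all genes. The libraries of the groups did not overlap for 6 of the 9 members, compared with 56.5% of all genes tested. The median log2 fold change of the members was 0.24, beside -0.01 over all genes. Shares this near the background are no result about the set, so the results below are those of single genes.

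YAP1, the coactivator on which the Hippo kinases act (ENSG00000137693, chr11:102110461-102233423), stood at 43.1, 30.8 and 38.2 FPKM in shCtrl and at 67.9, 66.7 and 69.9 in shNAT10. Every shNAT10 library lay above every shCtrl library. The mean rose from 37.4 ± 6.18 to 68.2 ± 1.65 (SD, n = 3 per group), a log2 fold change of 0.88 with a 95% interval of 0.59 to 1.16 (limma, adjusted p = 0.0016). With all 6 libraries this was the largest change of any member. Without shCtrl replicate 2, its lowest control library, the log2 fold change was 0.75, smaller in size than the -0.77 of CTGF in the same fit.

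WWTR1 encodes TAZ, the paralog of YAP (ENSG00000018408, chr3:149517235-149736714, minus strand). It stood at 87.5, 66.6 and 87.2 FPKM in shCtrl and at 108.7, 104 and 107.9 in shNAT10, again without overlap. The mean rose from 80.4 ± 12.0 to 106.8 ± 2.54 (SD, n = 3 per group), a log2 fold change of 0.42 with an interval of 0.15 to 0.69 (limma, adjusted p = 0.022). Leaving out any 1 of the shNAT10 libraries ended this call, with limma adjusted p of 0.077, 0.062 and 0.075 without replicates 1, 2 and 3. Calls over all genes fell too, from 5450 to 3660, 3671 and 3550 in these fits. Because YAP1 moved further than WWTR1, the ratio of WWTR1 to YAP1 fell from 2.16 ± 0.126 to 1.57 ± 0.0305 FPKM per FPKM. The ratios of the groups did not overlap, and the exact permutation test gave p = 0.1, which is the smallest that 3 libraries against 3 allow.

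Of the TEAD factors, TEAD1 (ENSG00000187079, chr11:12674591-12944483) stood at 36.9, 17.4 and 29.1 FPKM in shCtrl and at 32.8, 30.1 and 35.3 in shNAT10. The shNAT10 values fell within the control range, and shCtrl replicate 2 was far below the other libraries. The log2 fold change was 0.30 with an interval of -0.29 to 0.89 (limma, adjusted p = 0.37), and it was -0.0034 without that library. TEAD4 (ENSG00000197905, chr12:2959330-3040673) stood at 10.1, 12.0 and 8.98 FPKM in shCtrl and at 13.1, 12.5 and 10.9 in shNAT10. The groups overlapped, and the log2 fold change of 0.24 had an interval of -0.06 to 0.53 (limma, adjusted p = 0.17). The TEAD4 call changed with the setting: the value was 0.35 without shCtrl replicate 2 (adjusted p = 0.018), 0.14 without shCtrl replicate 3 (adjusted p = 0.42) and 0.35 in TPM (adjusted p = 0.039).

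CYR61 and CTGF are secreted matricellular proteins of the CCN family, and in these cells they moved apart. CYR61 (ENSG00000142871, chr1:85580761-85583962) stood at 140.3, 167.6 and 143.8 FPKM in shCtrl and at 133.3, 140.4 and 140.1 in shNAT10. The ranges met, since the highest shNAT10 value lay just above the lowest control value. The mean was 150.6 ± 14.8 in shCtrl and 137.9 ± 4.02 in shNAT10 (SD, n = 3 per group), with a log2 fold change of -0.12 and an interval of -0.32 to 0.07 (limma, adjusted p = 0.27). The interval includes 0 and ends short of the fall seen for CTGF. Without shCtrl replicate 2, its highest control library, the log2 fold change of CYR61 was -0.04.

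CTGF (ENSG00000118523, chr6:131948176-131951373, minus strand) stood at 24.1, 25.8 and 25.5 FPKM in shCtrl and at 14.4, 14.5 and 14.5 in shNAT10. The libraries within each group were close, and the groups were far apart. These values came from 976 to 1404 recovered reads per library in shCtrl and 534 to 660 in shNAT10. The mean fell from 25.1 ± 0.921 to 14.5 ± 0.0486 (SD, n = 3 per group), a drop of 42.4% and a log2 fold change of -0.79 with an interval of -0.94 to -0.64 (limma, adjusted p = 0.00021). It kept its call and direction under all 18 alternative settings, between -0.82 and -0.69. The ratio of CYR61 to CTGF in 1 library, which no library-wide scaling can move, went from 5.99 ± 0.458 to 9.53 ± 0.253, with no overlap (exact permutation test, p = 0.1).

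ANKRD1, a nuclear ankyrin repeat protein induced by stretch in muscle (ENSG00000148677, chr10:90912096-90921276, minus strand), was the lowest of the members. It stood at 1.81, 2.15 and 1.76 FPKM in shCtrl and at 1.31, 1.27 and 1.34 in shNAT10, from 41 to 86 recovered reads per library. The groups did not overlap, and the log2 fold change was -0.50 with an interval of -0.85 to -0.16 (limma, adjusted p = 0.03). The call was fragile: it was lost on leaving out shCtrl replicate 2 or 3 or any of the shNAT10 libraries. Adjusted p in limma was then between 0.063 and 0.088, while the value stayed between -0.56 and -0.42. Calls over all genes went from 5450 to 6621 without shCtrl replicate 2, and to between 3550 and 3870 in the other fits that lost the call.

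AMOTL2, an angiomotin family scaffold that binds YAP (ENSG00000114019, chr3:134355874-134375479, minus strand), stood at 20.8, 18.6 and 19.2 FPKM in shCtrl and at 11.9, 12.4 and 11.8 in shNAT10. Every shNAT10 library lay below every shCtrl library by a wide margin. The mean fell from 19.5 ± 1.13 to 12.0 ± 0.324 (SD, n = 3 per group), a log2 fold change of -0.69 with an interval of -0.86 to -0.53 (limma, adjusted p = 0.00052). It kept this call under all 18 alternative settings.

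LATS2, the kinase that phosphorylates YAP and is itself a YAP target (ENSG00000150457, chr13:20973032-21061547, minus strand), went the other way from AMOTL2. It stood at 3.54, 2.30 and 3.35 FPKM in shCtrl and at 4.28, 4.11 and 3.97 in shNAT10, without overlap. The log2 fold change was 0.44 with an interval of 0.05 to 0.83, and it missed the threshold (limma, adjusted p = 0.07). Without shCtrl replicate 1 it was 0.55 with an adjusted p of 0.036, without shCtrl replicate 2 it was 0.25 with an adjusted p of 0.045, and without shCtrl replicate 3 it stayed uncalled. With voom on the recovered reads it was 0.45 with an adjusted p of 0.045. The ratio of LATS2 to AMOTL2 in a library rose from 0.156 ± 0.0282 to 0.342 ± 0.0143, with no overlap.

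**Figure D1:**
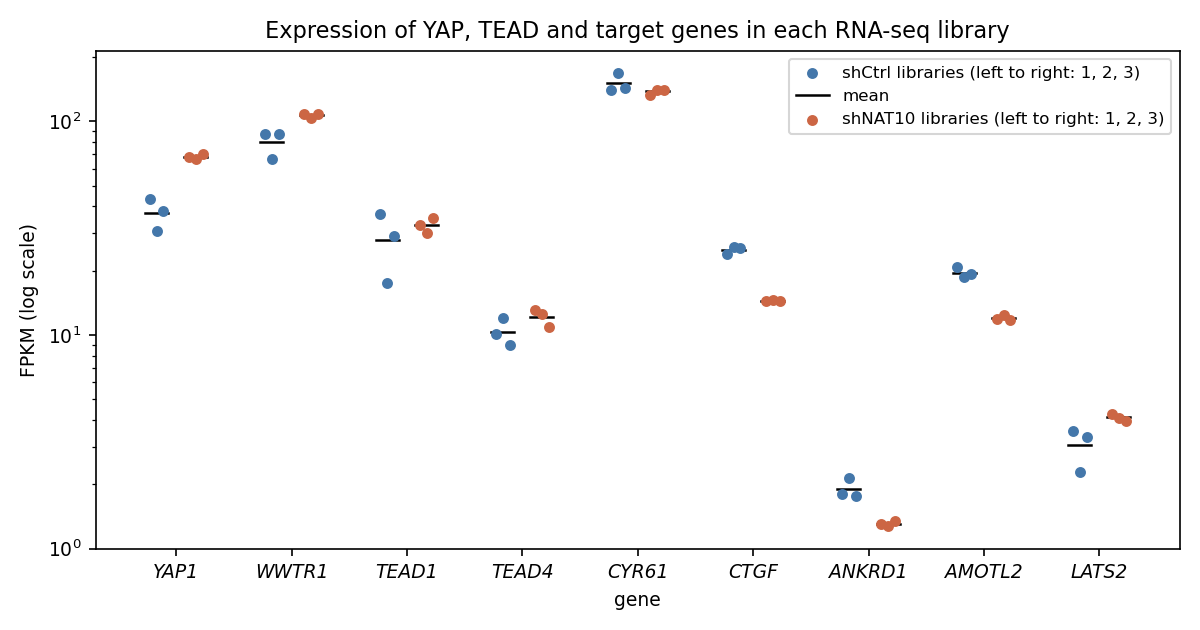
Expression of the 9 genes in each of the 6 RNA-seq libraries, in FPKM on a log axis, with shCtrl in blue, shNAT10 in orange and a bar at each group mean. YAP1, WWTR1 and LATS2 lie higher in every shNAT10 library, CTGF, ANKRD1 and AMOTL2 lie lower in every one, and TEAD1 has 1 control library at 17.4 FPKM far below the others.

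Levels of different genes were compared in FPKM, which is scaled by transcript length. In shCtrl the order from high to low was CYR61, WWTR1, YAP1, TEAD1, CTGF, AMOTL2, TEAD4, LATS2 and ANKRD1, from 150.6 to 1.90 FPKM. YAP1 and TEAD1 overlapped in range, as did TEAD1 and CTGF, while the other neighbours were apart. In shNAT10 TEAD4 and AMOTL2 changed places, at 12.2 and 12.0 FPKM, and overlapped. Relative to YAP1, CTGF went from 0.687 ± 0.14 to 0.212 ± 0.00547 FPKM per FPKM and CYR61 from 4.15 ± 1.14 to 2.02 ± 0.0726. Both ratios were lower in every shNAT10 library than in any shCtrl library, although CYR61 itself was not called and YAP1 rose. The ratios were not corrected for transcript length, which was 2339 bases for CTGF, 2290 for CYR61 and 5398 for YAP1. In both, shCtrl replicate 2 had the highest control value, at 0.836 for CTGF and 5.44 for CYR61.

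Transcript length moved with the position of shCtrl replicate 2 among the members. It was the lowest of the control libraries for all 5 members with transcripts of 4521 bases or more (AMOTL2, WWTR1, YAP1, LATS2 and TEAD1). It was the highest for all 4 members of 2339 bases or less (TEAD4, ANKRD1, CYR61 and CTGF). Between the groups, the median log2 fold change over all genes also ran with length, at -0.14 in the shortest sixth and 0.16 in the longest. With each library corrected for transcript length and GC content, an alternative chosen after seeing the data, the log2 fold change was 0.74 for YAP1, 0.30 for WWTR1, -0.72 for CTGF, -0.47 for ANKRD1 and -0.66 for AMOTL2, all still called in limma. TEAD4 became 0.45 with an adjusted p of 0.0025, and TEAD1 was 0.09. The part of RNA or library quality in this was not tested.

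**Figure D2:**
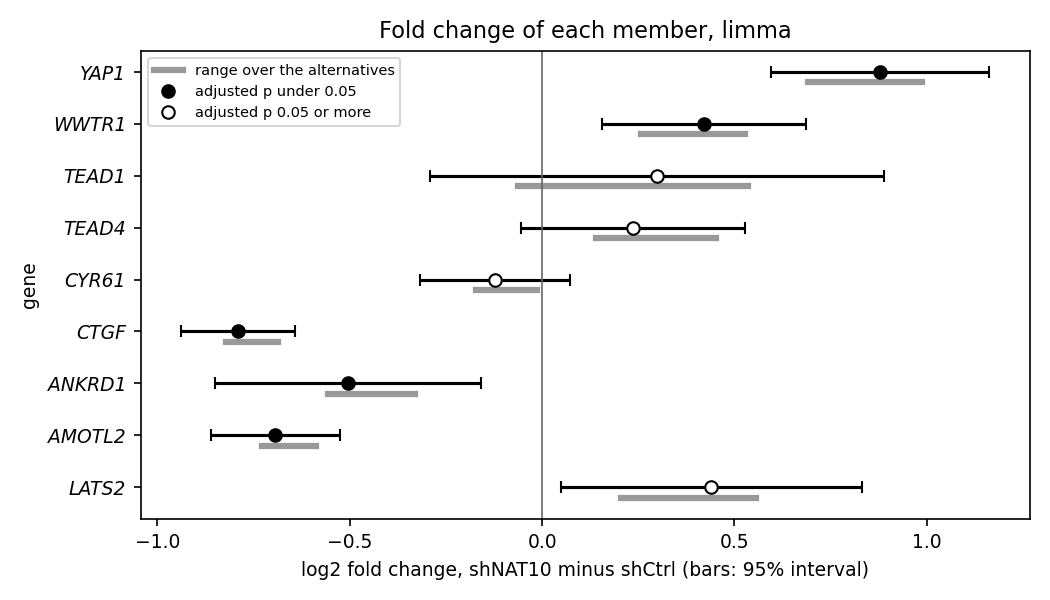
Log2 fold change of each gene, shNAT10 minus shCtrl, from limma with 95% intervals, where filled points have an adjusted p under 0.05 and grey bars span the alternative settings. YAP1 at 0.88 and CTGF at -0.79 are the ends of the range, and the interval of TEAD1 is the widest.

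The other genes of the pathway did not share a single direction. Of 22 core kinases and scaffolds, 21 were tested, of which 5 rose, 3 fell and 13 did not pass, with a median log2 fold change of 0.11. These counts are near the shares over all genes, 20.8% higher and 21.2% lower. Those that rose were AMOTL1 at 1.14 (a paralog of AMOTL2), FAT4 at 1.12 (an upstream cadherin), MAP4K4 at 0.90 (a kinase acting on LATS), STK3 at 0.51 and TAOK3 at 0.40. FAT4 stood at 5.12, 1.84 and 3.59 FPKM in shCtrl (limma, adjusted p = 0.031). Its call was lost without shCtrl replicate 3 and without any single shNAT10 library. NF2, the tumor suppressor merlin that recruits LATS to the membrane, fell by 0.98, from 18.0 to 9.11 FPKM, and WWC3 fell by 0.56. AMOTL2 was the third that fell. Without shCtrl replicate 2, 13 of the 21 were called instead of 8, while the calls over all genes went from 5450 to 6621.

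Among 10 nuclear effectors, 7 were tested, 4 of them members. Of the 7, 3 rose and none fell, with a median of 0.30, beside 20.8% of all genes that rose. Leaving out the members, 1 of 3 rose, with a median of 0.03. VGLL4, which competes with YAP for TEAD, rose from 19.3 to 28.8 FPKM (log2 fold change 0.58, limma adjusted p = 0.00053), beside YAP1 and WWTR1. TEAD2 stood at 15.2 and 13.2 FPKM and TEAD3 at 4.62 and 4.72 in shCtrl and shNAT10, and neither passed. VGLL1 was listed at 0 in every library, and VGLL2 was under 0.1 FPKM throughout.

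A list of 22 YAP and TAZ target genes, which includes 5 of the members, had 20 genes tested. Of these, 8 fell, 2 rose and 10 did not pass, with a median log2 fold change of -0.21 beside -0.01 over all genes. The shares over all genes were 21.2% lower and 20.8% higher. Leaving out the members, 5 of 15 fell and 2 rose, with a median of -0.15. The largest falls besides CTGF and AMOTL2 were FOXF2 at -1.01, a forkhead factor, and NUAK2 at -0.80, an AMPK-related kinase. The largest rise was IGFBP3, which binds insulin-like growth factors, from 3.95 to 10.4 FPKM (log2 fold change 1.38, limma adjusted p = 0.0001). NT5E, the ectonucleotidase known as CD73, rose by 0.51.

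acRIP-seq peaks lay on 6 of the 9 members in each group, beside 49.6% of the tested genes in shCtrl and 47.7% in shNAT10. These were 9 peaks in shCtrl and 12 in shNAT10, with 4 of the 9 members in both lists and 1 in neither, beside 33.7% and 36.5% of the tested genes. YAP1 and WWTR1 had peaks in shCtrl and none in shNAT10. CYR61 and AMOTL2 had them in shNAT10 and none in shCtrl. TEAD4 had none in either list. There is 1 list per group and no replicate check, so a peak missing from a list says nothing of a difference, and fold enrichment (immunoprecipitated over input) was not put on 1 scale between the lists.

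The median fold enrichment over all peaks was 49.3 in shCtrl and 45.2 in shNAT10. Every member peak outside ANKRD1 and LATS2 lay below the median of its list. The YAP1 peak of shCtrl (chr11:102230485-102230665) lay in the 3′ UTR with a fold enrichment of 19.5. The 2 peaks of WWTR1 lay in the coding sequence (2.50) and in the 3′ UTR (7.09). TEAD1 had 1 peak of 1.71 in shCtrl and 5 in shNAT10 of 1.80 to 25.5, of which 4 lay in the 3′ UTR. The 2 CYR61 peaks of shNAT10 lay in the coding sequence, at 8.41 and 4.55, and the AMOTL2 peak, at 10.2, did too.

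For the members that had peaks in both groups, the positions differed. The CTGF peak of shCtrl lay in the coding sequence of exon 3 (5.40), and that of shNAT10 lay in the 3′ UTR (24.1), separated by 1268 bases of the genome. Of the 9 shCtrl peaks, 2 shared at least 1 base with a shNAT10 peak, beside 25.5% of all shCtrl peaks. They were on ANKRD1, where a single base was shared, and on LATS2, where 31 bases were shared. The ANKRD1 and LATS2 peaks also had the highest fold enrichments, from 90.1 to 749 in shCtrl and from 432 to 3330 in shNAT10, and these are the 2 members with the lowest FPKM.

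The coding part of these peaks is shown for CTGF, whose shCtrl and shNAT10 peaks lay apart, and for LATS2, where the lists shared bases. For CYR61, which had peaks in shNAT10 alone, the first peak is shown. Sequences are GENCODE transcripts on GRCh38, 5′ to 3′, and capitals mark bases that lie in a peak of both groups.
CTGF, shCtrl, chr6:131950344-131950523, minus strand: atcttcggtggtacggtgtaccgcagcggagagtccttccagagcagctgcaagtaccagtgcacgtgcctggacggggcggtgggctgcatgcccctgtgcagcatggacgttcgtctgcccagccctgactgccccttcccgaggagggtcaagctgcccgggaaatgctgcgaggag
CYR61, shNAT10, chr1:85581392-85581571, plus strand: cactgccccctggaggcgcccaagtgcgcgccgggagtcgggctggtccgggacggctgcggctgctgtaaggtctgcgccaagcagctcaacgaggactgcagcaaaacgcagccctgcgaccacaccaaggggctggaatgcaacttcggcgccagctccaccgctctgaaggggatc
LATS2, shCtrl, chr13:21045712-21045892, minus strand: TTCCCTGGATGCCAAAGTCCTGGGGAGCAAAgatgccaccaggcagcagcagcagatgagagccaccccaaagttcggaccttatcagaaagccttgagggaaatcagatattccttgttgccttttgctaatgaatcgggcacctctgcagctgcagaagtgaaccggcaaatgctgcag
LATS2, shNAT10, chr13:21045862-21046026, minus strand: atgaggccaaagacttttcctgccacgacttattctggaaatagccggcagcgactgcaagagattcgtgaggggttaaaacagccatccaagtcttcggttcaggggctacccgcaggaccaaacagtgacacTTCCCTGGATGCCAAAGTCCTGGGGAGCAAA

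The CTGF and CYR61 stretches shown were rich in G and C, at 65% and 67.8%, and the LATS2 stretches held 52.5% and 52.7%. The coding stretch of CYR61 peak 2, which is not shown, held 49%. The LATS2 peak of shNAT10 began at the start codon in the stretch shown, since its 46 bases in the 5′ UTR are left out. The shared bases lay at the 3′ end of the shNAT10 peak and at the 5′ end of the shCtrl peak.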

How the data were processed

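The series held 18 samples, 3 in each of 6 groups. The submitters' processing notes name HISAT2 (version 2), HTSeq 0.11.0, DESeq2 1.22.2 and the genome build hg38 (GRCh38), with no further settings, and the peak caller and the way replicates were joined are not given in the sources used here. The authors deposited FPKM per gene and library. They also deposited, per the file headers, 1 list of acRIP-seq peaks per group with a fold enrichment (a ratio of immunoprecipitated to input signal) and a p-value. Columns holding no sample value were not used, and 0 per-sample columns were left out.

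Whole reads were recovered from the FPKM steps and the length of the longest transcript (GENCODE 29), and 97.0% of values above 0 came within 0.02 of a whole number. Of the 58302 identifiers, 58039 matched GENCODE. The 12982 genes that reached 1 FPKM in 3 or more of the libraries were tested on log2(FPKM + 0.1) in limma 3.58.1 (R 4.3.3), where the variance prior followed the mean. Calls were made at an adjusted p under 0.05 (Benjamini-Hochberg over every gene tested). Fold changes on this scale understate the change of low genes. As an alternative, voom on the recovered reads called 5664 genes against 5450. The fit was tested on simulated data. Single values were compared by two-sided exact permutation tests, in which 3 against 3 cannot go below 0.1. Peak coordinates count from 0 in the lists, as their inner block starts show against exon starts, and are given from 1. Peaks were called shared at 1 base or more.

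The libraries were prepared with a stranded kit, but the strand setting of the counting is not given, so reads of an antisense gene could enter YAP1 (AP000942.2 over 9.98% of its exon bases), WWTR1 (WWTR1-AS1, 9.45%) and CTGF (AL133346.1, 8.34%). Named genes were the 9 members, NAT10, up to 5 called genes of each list with the largest log2 fold change, and the 3 nearest profiles of CYR61 and CTGF. STK3, TAOK3, WWC3, NT5E, TEAD2, TEAD3, VGLL1, VGLL2 and the markers outside this rule were named after their values were seen. One marker on the immune list is not reported here. The members and lists were chosen with earlier results of these data known. Alternatives are given in the closing section.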

Additional observations from a re-analysis of the deposited data

How the results depend on the processing

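Of 160 member fold changes under an alternative setting, 136 kept direction and call, 14 lost the call, 8 gained it and 2 changed sign. The sign changed for TEAD1, which was -0.0034 without shCtrl replicate 2 (-0.0034 to 0.54 over all libraries left out in turn) and -0.063 with the length and GC correction in addition, neither with a call. ANKRD1 lost its call under 10 of 17 settings and kept its direction in all of them. Members called higher numbered 2, but 1 with no filter on expression, and 3 in TPM (adding TEAD4), with voom (adding LATS2) and with the length and GC correction (adding TEAD4). With 1 library left out they numbered 1 to 4. The 4 were without shCtrl replicate 2 (YAP1, WWTR1, LATS2 and TEAD4), and the 1 was without any single shNAT10 library. Calls over all genes moved too: 2699 were higher in the main fit and 2241 of 29695 with no filter. There were 3355 in TPM, 2816 with voom and 3489 with the length and GC correction. Without shCtrl replicate 2 there were 3303, and without 1 shNAT10 library 1774 to 1829. Members called lower numbered 2 or 3 with 1 library left out, beside 1765 to 3318 of all genes, which were 2751 with all 6 libraries. Core kinases and scaffolds called numbered 8, and 7 to 13 with 1 library left out. They numbered 15 with the length and GC correction without shCtrl replicate 2, a setting chosen after seeing the data. Over all genes, 5450 of 12982 were called in the main fit and 3550 to 6621 with 1 library left out. The setting that gave 15 called 7195 of 12952 genes. Nuclear effectors called numbered 2 to 4, YAP/TAZ target genes called 7 to 12, and NAT10 lay between -1.88 and -1.79 with 1 library left out. In every case the cause was not tested. At a minimum FPKM of 5, ANKRD1 and LATS2 were not tested.

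With the 50% of each peak list highest in fold enrichment, 2 members had a peak in shCtrl and 2 in shNAT10 instead of 6 and 6. With the 50% of lowest p-values, 3 had one in shCtrl and 5 in shNAT10, and 0 shCtrl peaks overlapped instead of 2, and requiring 50% of both peaks also left 0.

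Deviations from the group means correlated at r of -0.04, 0.06 and 0.11 between same-numbered libraries, beside -0.12 to 0.06 between differently numbered ones. With 3 libraries per group, these values cannot show whether the numbers pair the samples. With the replicate block, 2 members were called higher and 2 lower, ANKRD1 being the call lost (limma, adjusted p = 0.067). Of the lists, 8 kinases and scaffolds, 3 nuclear effectors and 9 target genes were called. Over all 12982 genes, 2524 were called higher and 2603 lower with the block.

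Depth limits ANKRD1 most, at 41 to 86 recovered reads per library.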

Other observations

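Beside CYR61 and CTGF, 1 other gene of the CCN family passed the expression filter, WISP2 (CCN5), at 31.3, 45.2 and 38.4 FPKM in shCtrl and 20.9, 21.6 and 19.6 in shNAT10. Its groups did not overlap, and it fell by 0.87 on the log2 scale (limma, adjusted p = 0.0025), close to the -0.79 of CTGF. NOV, WISP1 and WISP3 did not pass the expression filter. Of the 3 CCN genes tested, CTGF and WISP2 were called lower and CYR61 was not called, beside 21.2% of all genes called lower.

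The genes nearest in profile to CYR61 over the 6 libraries, by root mean square difference of centred log2 values, were FH at 0.0198, STMN1 at 0.0207 and RHOA at 0.03, where the median over all tested genes was 0.241. Those nearest to CTGF were PISD at 0.0307, CD83 at 0.0345 and LGMN at 0.0355, where the median was 0.43. The likeness rests on 6 libraries and is a description.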
